A study of Mus musculus with 12 samples.

Results

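Immunoglobulin constant (C) and variable (V) genes were followed in kidney RNA of 12 libraries. They were taken as every row of the deposited gene table typed as an immunoglobulin C or V gene, which gave 231 of 56748 genes, 13 of them C genes and 218 V genes. The libraries formed 4 groups of 3: wild type mice after sham surgery (WT sham) or after ischemia/reperfusion (WT IR), and mice in which Krt20 was conditionally knocked out, per the labels only in proximal tubular cells of the kidney, after the same procedures (cKO sham, cKO IR). All mice were male, aged 8 to 12 weeks, and anesthetized with pentobarbital. In IR the pedicles of both kidneys, which carry their vessels, were clamped for 30 min, and the mice were killed 24 h after reperfusion, while sham mice had the surgery with no clamping. The strain, and the promoter that restricts the knockout, are not stated in the labels. The labels do not say that libraries came from separate animals, so p-values rest on the spread among libraries, part of which may be technical.

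Antibodies pair heavy with light chains. A B cell joins V, D and J segments of the heavy chain locus, and V and J segments of the kappa or lambda light chain locus, and the joined segment is transcribed with a C gene. The heavy chain C gene names the isotype: Ighm gives IgM, Ighd IgD, the Ighg genes IgG, Ighe IgE and Igha IgA, the isotype of mucosal secretions. B cells carry antibody on their surface, and plasma cells, which arise from them, secrete it and hold very high amounts of these RNAs. A healthy kidney holds few of either. Unjoined C genes can also be transcribed on their own, without a V segment.

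The libraries held 13187531 to 15962303 reads, as recovered from the deposited values, and 7.29% to 10.4% of them were mitochondrial. Kidney markers were abundant in each group: the summed level of 6 kidney epithelium genes was 2815 to 3085 FPKM in WT sham, 887 to 1851 in WT IR, 2803 to 3003 in cKO sham and 702 to 988 in cKO IR. FPKM are fragments scaled by gene length and library size. The library WT IR 2 stood between the sham group and the other WT IR libraries, with the proximal tubule phosphate transporter Slc34a1 at 720 FPKM against 370 and 248. Krt20, the targeted gene, had 1, 0 and 4 reads in WT sham and 1, 0 and 0 in cKO sham, so the sham labels could not be checked by it. After IR its levels were 84.0, 64.9 and 59.9 FPKM in the WT libraries and 28.2, 35.6 and 47.0 FPKM in those labelled cKO, lower there but abundant.

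Immunoglobulin RNA was scarce. Of the 231 genes, 116 had no read in any library, 50 had 1 or 2 reads in all 12 together, 45 had 3 to 9, and 20 had 10 or more. The 115 genes with a read held 3676 reads, and 3 of them held 75.0% of these: Igha with 1348 reads, Ighm with 711 and Igkc, the single kappa light chain C gene, with 699. Only these 3 reached a mean of 1 FPKM over the 12 libraries, the filter of the test, with Ighm the lowest at 2.17 FPKM. The highest gene below the filter had a mean of 0.574 FPKM. The 3 genes passed through the groups where they were high, so the others are described by their reads.

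The V genes with the most reads are shown by the last 60 coding bases of their reference transcripts. The stretch ends where the next segment is joined, D in heavy chains and J in light chains. Close relatives can be nearly alike in it: Ighv14-2 and Ighv14-1 differ only within the last 6 bases. The letters come from GENCODE release M21 on the GRCm38 build. Capitals mark TANTNNTGN, the 9 bases around the codon of the conserved second cysteine that precedes the antigen-contacting loop CDR3.
Ighv14-2: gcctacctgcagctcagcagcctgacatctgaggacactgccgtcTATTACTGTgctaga
Ighv14-1: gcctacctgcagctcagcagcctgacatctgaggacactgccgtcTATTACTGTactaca
Iglv1: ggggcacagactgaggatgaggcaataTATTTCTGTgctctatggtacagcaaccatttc
Ighv9-3: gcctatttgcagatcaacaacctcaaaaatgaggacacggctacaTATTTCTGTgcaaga
Igkv3-2: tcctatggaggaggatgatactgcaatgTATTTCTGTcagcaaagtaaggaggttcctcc
Ighv14-2 is the V gene with the most reads and Ighv14-1 the gene that shares most 50-base windows with it, while Iglv1, Ighv9-3 and Igkv3-2 follow it in reads. In GRCm38 these stretches lie at chr12:113994469-113994528 (minus strand) for Ighv14-2, chr12:113931953-113932012 (minus) for Ighv14-1, chr16:19085017-19085076 (minus) for Iglv1, chr12:114140692-114140751 (minus) for Ighv9-3 and chr6:70699008-70699067 (plus) for Igkv3-2. Each is the 3′ end of its gene's annotated coding sequence. On the transcript strand the motif was found in the last 60 transcript bases of 209 of 218 V genes (95.9%) and in those of 5.99% of all 141515 reference transcripts of at least that length. On the opposite strand it was found in 22 of the V genes (10.1%) and in 6.82% of all transcripts.

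V genes resemble each other, which limits how surely a read is placed. Of the 218 V genes, 44 shared no window of 50 bases with another gene, and 123 shared over 20% of their windows. For Ighv14-2 the share was 37.1%, most of it with Ighv14-1, for Iglv1 22.2%, for Ighv9-3 23.2% and for Igkv3-2 21.3%. The C genes Igha, Ighm, Ighd, Igkc and Iglc1 shared none, whereas Ighg2c shared 6.01% and Ighg2b 4.33%, mainly with each other. How the authors' counting treated reads that fit several genes, and whether it used strand, is not given in the sources used here. In the deposited table Igkc lies on chromosome 6 at 70703419 to 70703950 (plus strand), and on the minus strand of chromosome 12 lie Ighm at 113382178 to 113386350 and Ighv14-2 at 113958089 to 113958518. The table names no build. Its start positions differed from GRCm38 by 1 constant per chromosome, 36380 bases for all 121 genes on chromosome 12, 23016 for all 103 on chromosome 6 and 181250 for all 7 on chromosome 16.

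**Figure D1:**
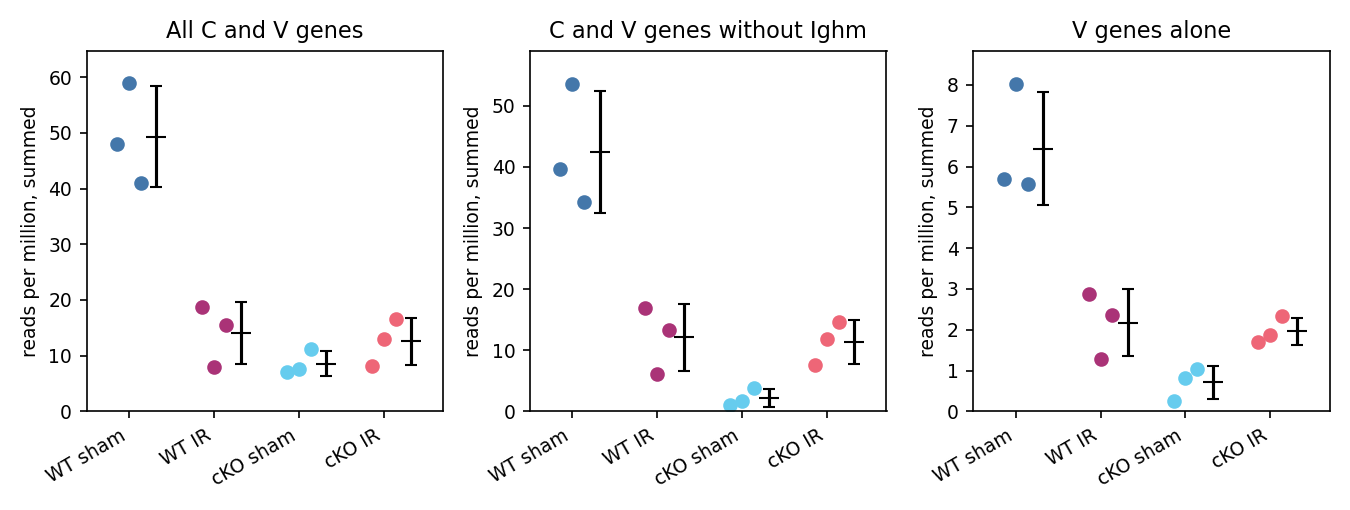
RPM summed over immunoglobulin genes (vertical axes) by group (horizontal axes), with 1 point per library and the mean ± SD of 3 libraries beside them. WT sham stands above the other groups in each panel. Without Ighm, a sum added after seeing the data, the cKO sham libraries, at 1.06 to 3.84, lie below all others.

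The summed level was highest in WT sham. In RPM (reads scaled to the library size the authors used), the sum over all 231 genes was 48.0, 59.0 and 41.0 in WT sham, 18.8, 7.93 and 15.5 in WT IR, 7.0, 7.57 and 11.1 in cKO sham, and 8.14, 12.9 and 16.6 in cKO IR. The WT sham libraries lay above all others, and the remaining 3 groups overlapped one another. The sham means were 49.4 ± 9.08 for WT and 8.56 ± 2.23 for cKO, and the IR means 14.1 ± 5.58 for WT and 12.5 ± 4.23 for cKO (SD, n = 3). In reads, WT IR stood 3.47-fold below WT sham (667 against 2045 reads) and cKO sham 5.81-fold below WT sham (378 reads). For cKO IR against cKO sham the ratio was 1.46, with a 95% exact binomial interval of 1.28 to 1.67. Such intervals rest on reads without molecular identifiers and cover counting error only. The summed level is given without a test, as the genes were chosen as a list. In whole tissue, fewer cells of a type and less RNA per cell cannot be told apart.

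Most reads of cKO sham came from 1 gene. Ighm held 74.6% of the immunoglobulin reads of that group (282 of 378), against 13.8% in WT sham, 13.8% in WT IR and 9.39% in cKO IR. Without Ighm, cKO sham had 1.06, 1.65 and 3.84 RPM, WT sham 39.6, 53.6 and 34.2, WT IR 16.9, 6.10 and 13.3, and cKO IR 7.51, 11.9 and 14.7. In these sums cKO sham lay below each other group with no overlap. Ighm was left out after the data were seen, so this separation is a description only. The reads of cKO sham were then 19.7-fold below WT sham, and those of cKO IR 5.22-fold above cKO sham (95% interval 4.19 to 6.56). V genes alone, which Ighm does not enter, had 5.70, 8.03 and 5.58 RPM in WT sham, 2.88, 1.29 and 2.36 in WT IR, 0.264, 0.826 and 1.03 in cKO sham, and 1.69, 1.87 and 2.33 in cKO IR. The V gene order of the groups was that of the sums without Ighm.

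**Figure D2:**
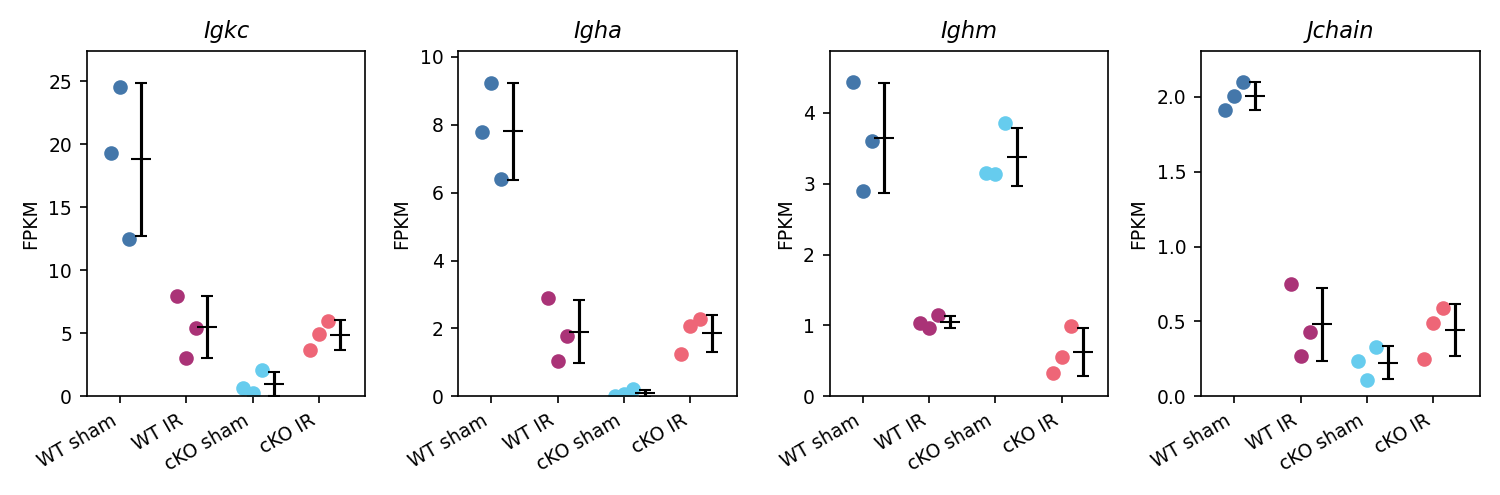
FPKM (vertical axes) of Igkc, Igha, Ighm and Jchain by group, with 1 point per library and the mean ± SD of 3 libraries beside them. Igkc, Igha and Jchain have their lowest means in cKO sham, while the Ighm libraries of both sham groups overlap.

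Igkc, the C gene of kappa chains, the main light chain type of the mouse, had 19.3, 24.6 and 12.5 FPKM in WT sham, 7.96, 3.06 and 5.44 in WT IR, 0.621, 0.259 and 2.06 in cKO sham, and 3.65, 4.98 and 5.96 in cKO IR. Every WT sham library lay above, and every cKO sham library below, the libraries of the other groups, and both IR groups overlapped. Igha, the IgA heavy chain C gene, had 7.80, 9.24 and 6.39 FPKM in WT sham, 2.89, 1.04 and 1.77 in WT IR, 0, 0.0774 and 0.206 in cKO sham, and 1.24, 2.06 and 2.28 in cKO IR. Its groups stood in the same order with the same overlap. In reads, Igha had 281, 356 and 226 in WT sham and 0, 3 and 8 in cKO sham, where 3 reads, the limit that a count of 0 allows, are 0.198 to 0.206 RPM. Ighm, the IgM heavy chain C gene, followed another pattern: 4.44, 2.90 and 3.6 FPKM in WT sham, 1.03, 0.970 and 1.14 in WT IR, 3.15, 3.14 and 3.86 in cKO sham, and 0.332, 0.548 and 0.996 in cKO IR. It was high in both sham groups, which overlapped, and low in both IR groups, which also overlapped.

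Over the 12 libraries Pearson's r on log2(FPKM + 1) was 0.98 between Igkc and Igha, 0.07 between Igkc and Ighm and 0.11 between Igha and Ighm. These are descriptions over libraries that share their groups. The 5 tested genes outside the family that were most like Igkc by this measure, of 12865, were Arih2 (r = 0.88), a ubiquitin ligase gene, Nipa1 (0.84), which encodes a magnesium transporter, Nr4a1 (0.84), an early response nuclear receptor gene, Csrnp1 (0.82) and the long noncoding RNA Gm45148 (0.81).

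**Figure D3:**
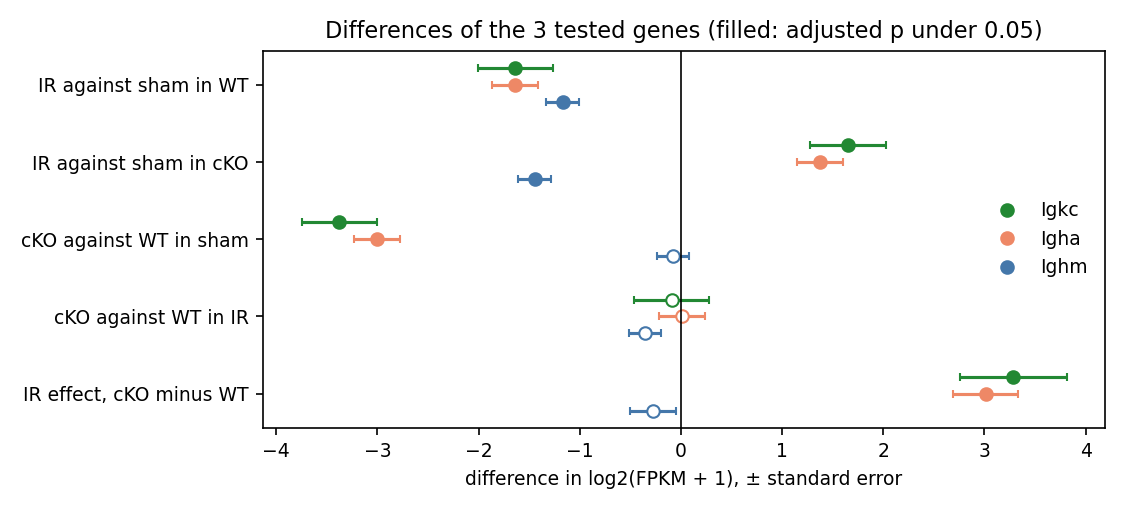
Differences in log2(FPKM + 1) with standard errors (horizontal axis) of Igkc, Igha and Ighm in the 5 comparisons (vertical axis), filled where the limma adjusted p passed 0.05. Igkc and Igha change sign between the IR effects of WT and cKO, and Ighm does not.

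Ischemia/reperfusion lowered all 3 tested genes in WT kidneys. In limma on log2(FPKM + 1), with adjustment over all 12868 tested genes, Igkc fell by 1.64 (SE 0.37, adjusted p = 0.00532), Igha fell by 1.64 (SE 0.23, adjusted p = 0.000381) and Ighm fell by 1.17 (SE 0.16, adjusted p = 0.000348). All 3 WT IR libraries lay below all 3 WT sham libraries for each gene. How many of all genes separated in this way was not counted. Of all genes tested, 19.5% were called lower in this comparison. By summed reads, WT IR held 0.295 times the WT sham level for Igkc, 0.248 times for Igha and 0.288 times for Ighm. Without WT IR 2, the library that stood apart, limma still called all 3 lower (−1.33 for Igkc, −1.41 for Igha and −1.14 for Ighm).

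In cKO kidneys the same injury went with higher Igkc and Igha and lower Ighm. Igkc rose by 1.65 (SE 0.37, adjusted p = 0.00373) and Igha by 1.37 (SE 0.23, adjusted p = 0.000598) in limma, where 27.8% of all tested genes were called higher. Ighm fell by 1.45 (SE 0.16, adjusted p = 5.03e-05), where 23.1% were called lower. No library of one group overlapped the other for any of the 3 genes, and such separation was not counted over all genes. In reads the ratio of cKO IR to cKO sham was 4.96 for Igkc (95% interval 3.16 to 8.13), 19.9 for Igha (10.9 to 40.4) and 0.184 for Ighm (0.135 to 0.246). The log2(FPKM + 1) scale understates the change of Igha, which was near 0 FPKM in cKO sham.

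Between the sham groups, Igkc and Igha were lower in cKO. Igkc was lower by a log2 difference of −3.38 (SE 0.37, adjusted p = 0.00151) and Igha by −3.0 (SE 0.23, adjusted p = 0.000208), both in limma, where 0.256% of all tested genes (33 of 12868) were called lower. Ighm did not pass (−0.08, SE 0.16, adjusted p = 0.935). The ratio of cKO sham to WT sham reads was 0.0515 for Igkc (0.0323 to 0.0783), 0.0119 for Igha (0.00590 to 0.0213) and 0.931 for Ighm (0.787 to 1.10). Igha thus stood 84.2-fold lower in reads while Ighm had 282 reads in each group.

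After IR, no gene of the family was called between the genotypes. The log2 differences of cKO IR against WT IR were −0.09 for Igkc (SE 0.37, adjusted p = 0.937), 0.01 for Igha (SE 0.23, adjusted p = 0.989) and −0.35 for Ighm (SE 0.16, adjusted p = 0.334). Limma called 0.0% of all genes higher and 0.0% lower in this comparison, although 1926 genes had an unadjusted p under 0.05. With voom, or with plain read totals, 1 gene was called lower, and it was no immunoglobulin gene. Ratios of reads were 0.865 for Igkc (0.672 to 1.11), 0.953 for Igha (0.792 to 1.15) and 0.594 for Ighm (0.417 to 0.839).

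The effect of IR differed between the genotypes for Igkc and Igha. The interaction in limma was 3.29 for Igkc (SE 0.52, adjusted p = 0.0191) and 3.01 for Igha (SE 0.32, adjusted p = 0.00289), with 0.295% of all tested genes called higher. For Ighm it was −0.28 (SE 0.23, adjusted p = 0.623). The Igkc call ended when a single library was left out in 3 of 12 cases: adjusted p = 0.0604 without WT sham 2, 0.0515 without cKO sham 1 and 0.0563 without cKO sham 2. The interaction and the comparisons above it share libraries, so they are not independent of each other.

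With the filter lowered to a mean of 0.1 FPKM, 20512 genes and 26 of the family were tested. In WT, 8 were called lower after IR, beside 14.6% of all genes: Igkc, Igha and Ighm, the lambda C genes Iglc1 (log2 difference −0.83, adjusted p = 0.0344) and Iglc2 (−0.29, adjusted p = 0.0446), and the V genes Iglv1 (−1.03, adjusted p = 0.0159), Igkv17-121 (−0.56, adjusted p = 0.0145) and Ighv3-6 (−0.57, adjusted p = 0.0298). Ighv14-2 alone was called higher, beside 15.0% of all genes (0.80, SE 0.23, adjusted p = 0.0243). In cKO, Igkc, Igha and Ighv14-2 (0.77, SE 0.23, adjusted p = 0.0230) were called higher after IR, beside 18.7% of all genes, and Ighm lower, beside 17.3%. Between the sham groups Igkc and Igha were again the members called lower, beside 0.195% of all genes, and both were called in the interaction, beside 0.18%. All of these p-values are limma's. Genes this low pass the filter only or mainly through the groups where they are high. Igkv17-121 and Ighv3-6 each had 9 of their 10 reads in WT sham and 1 in WT IR. Iglv1 had 27 reads in WT sham and 4 in WT IR, Iglc1 22 and 4, Iglc2 10 and 4, and Ighv14-2 1 and 14. In cKO Ighv14-2 had 4 after sham and 18 after IR. The calls of these 6 genes describe such reads and support nothing further.

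**Figure D4:**
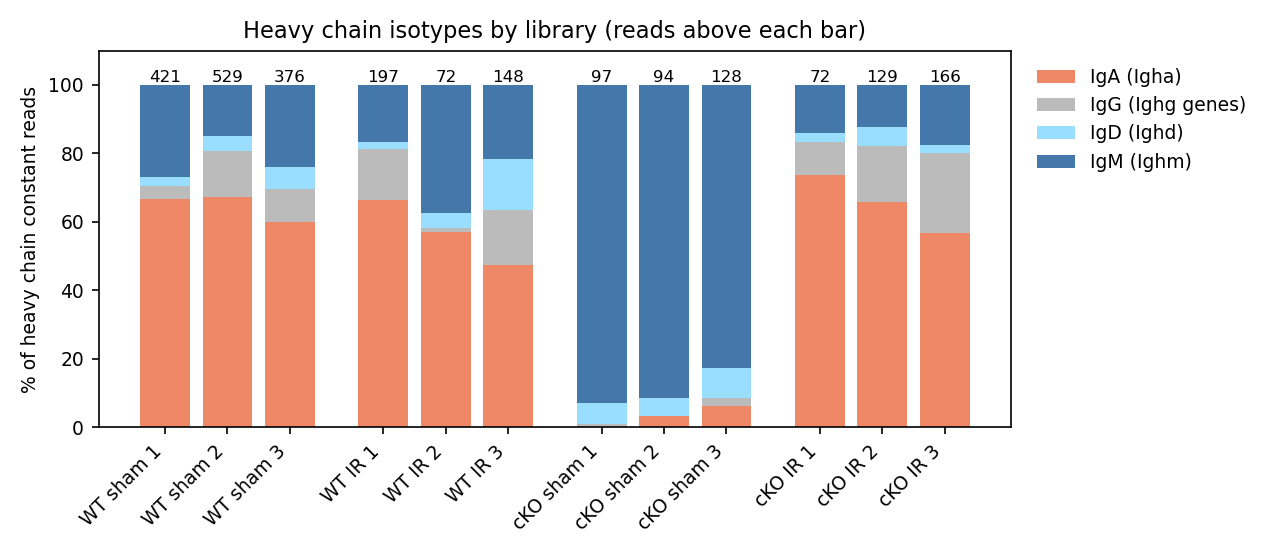
Share of heavy chain C reads (vertical axis, %) by isotype in each library (horizontal axis), with the number of such reads above each bar. IgM takes 82.8% to 92.8% of the reads in cKO sham and 12.4% to 37.5% in the other libraries.

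The isotype make-up set cKO sham apart. IgA held 66.7%, 67.3% and 60.1% of the heavy chain C reads in WT sham, 66.5%, 56.9% and 47.3% in WT IR, and 73.6%, 65.9% and 56.6% in cKO IR, but 0%, 3.19% and 6.25% in cKO sham. The highest cKO sham library had 8 IgA reads of 128, with a 95% exact binomial interval (Clopper-Pearson) of 2.74% to 11.9%. IgM held 26.8%, 14.9% and 23.9% in WT sham, 16.8%, 37.5% and 21.6% in WT IR, 92.8%, 91.5% and 82.8% in cKO sham, and 13.9%, 12.4% and 17.5% in cKO IR. The 3 other groups thus shared an IgA-rich make-up, and the cKO sham libraries were the 3 highest in IgM and the 3 lowest in IgA. Pooled over 3 libraries, IgM was 88.4% of 319 reads in cKO sham and 21.3% of 1326 in WT sham.

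IgG and IgD held smaller shares in most groups. The IgG genes held 9.28% of heavy chain C reads in WT sham and 1.25% in cKO sham (4 of 319), and after IR 12.9% in WT and 18.3% in cKO. In cKO IR they had more reads than Ighm, 67 against 55. Ighg2c had 7, 51 and 12 reads in WT sham, 15, 1 and 7 in WT IR, 0, 0 and 1 in cKO sham, and 1, 10 and 27 in cKO IR. A single library held most of its reads in WT sham (WT sham 2), in WT IR (WT IR 1) and in cKO IR (cKO IR 3). Ighg2b had 8, 19 and 20 reads in WT sham, 13, 0 and 12 in WT IR, 0, 0 and 0 in cKO sham, and 4, 11 and 12 in cKO IR. Its reads were absent only from the 3 cKO sham libraries and WT IR 2, and its reads over cKO IR had a lower 95% bound of 6.45 times cKO sham. Ighg1 had 10 reads and Ighg3 7 reads over the 12 libraries, and Ighe had none. Ighd had 11, 23 and 24 reads in WT sham, 4, 3 and 22 in WT IR, 6, 5 and 11 in cKO sham, and 2, 7 and 4 in cKO IR, with 0.181 to 0.397 FPKM in cKO sham against 0.429 to 0.953 in WT sham, 2 groups that did not overlap. Ighd made 7.24% of the Ighd and Ighm reads in cKO sham (4.59% to 10.8%) and 17.1% in WT sham (13.2% to 21.5%). By library these shares overlapped, from 5.49% to 9.40% in cKO sham and from 8.87% to 22.5% in WT sham.

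Light chains were mostly kappa. Igkc held 92.0% of light chain C reads in WT sham (416 of 452), 94.6% in WT IR (139 of 147) and 95.3% in cKO IR (121 of 127). In cKO sham the share was 82.1% of 28 reads, with an interval of 63.1% to 93.9% that takes in the WT sham value and ends below those of both IR groups. The lambda C genes had few reads: Iglc1 had 5, 13 and 4 in WT sham, 0, 0 and 4 in WT IR, 0, 0 and 2 in cKO sham and 0, 1 and 4 in cKO IR, while Iglc2 had 16 in all, Iglc3 5 and Iglc4 1. Light and heavy chains were out of step in cKO sham, with 28 light chain C reads beside 319 heavy chain C reads, against 452 beside 1326 in WT sham, 147 beside 417 in WT IR and 127 beside 367 in cKO IR.

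**Figure D5:**
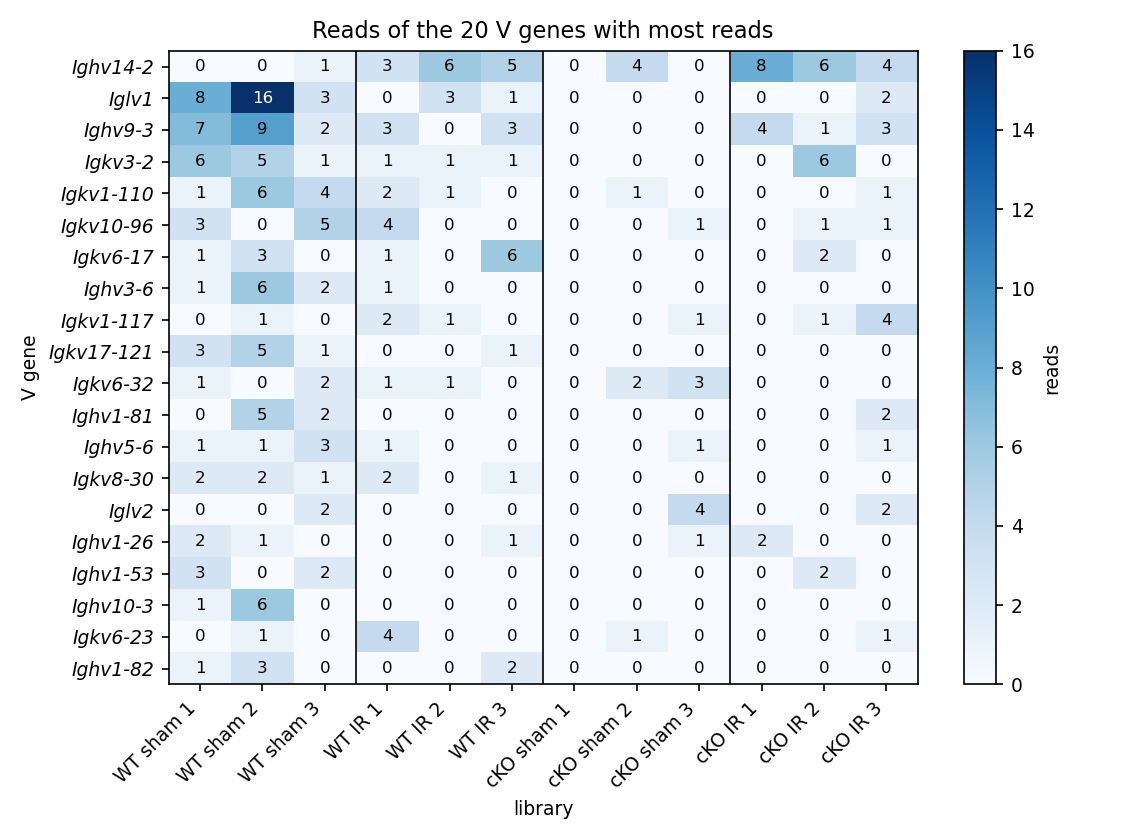
Reads (cell numbers and shade) of the 20 V genes with the most reads (rows) in the 12 libraries (columns), with lines between the groups. Most genes have their reads in WT sham, Ighv14-2 has most in the 2 IR groups, and cKO sham is nearly empty.

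V gene reads were spread over many genes. The 493 V reads fell on 103 genes, 31 of them with a single read, and the 10 with the most reads held 40.0% of them. No V gene had a read in more than 8 of 12 libraries, 44 had reads in 1 library, and 115 had none. WT sham had 34, 45 and 47 V genes with a read (77, 116 and 74 V reads), WT IR 22, 12 and 19 (49, 19 and 35), cKO sham 2, 6 and 10 (4, 12 and 15), and cKO IR 11, 14 and 21 (27, 29 and 36). The number of genes seen moved with the number of reads, so it is no measure of diversity by itself. Genes with a read in all 3 libraries of a group numbered 11 in WT sham, 3 in WT IR (Ighv14-2, Igkv3-2 and Igkv15-103), 2 in cKO IR (Ighv14-2 and Ighv9-3) and 0 in cKO sham.

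Ighv14-2, a heavy chain V gene, had most of its reads after IR. Its reads numbered 0, 0 and 1 in WT sham, 3, 6 and 5 in WT IR, 0, 4 and 0 in cKO sham, and 8, 6 and 4 in cKO IR. Every WT IR library lay above every WT sham library, whereas the cKO groups met, with 0.784 FPKM in cKO sham 2 against 0.738 FPKM in cKO IR 3. In reads WT IR stood 12.4 times above WT sham, on 14 reads against 1 (95% interval 1.88 to 523), and cKO IR 4.25 times above cKO sham (1.40 to 17.2). Its relatives Ighv14-3 and Ighv14-4 had 1 and 2 reads, all in WT sham, and Ighv14-1, which differs little in the stretch shown above, had none. Ighv14-2 was the V gene with the most reads in WT IR 2, cKO sham 2 and cKO IR 1, and shared that place with Igkv3-2 in cKO IR 2 and with Igkv1-117 in cKO IR 3. In cKO IR 1 it held 29.6% of V reads (8 of 27, interval 13.8% to 50.2%).

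The next 3 V genes had most of their reads in WT sham. Iglv1, a lambda V gene, had 8, 16 and 3 reads in WT sham, 0, 3 and 1 in WT IR, none in cKO sham and 0, 0 and 2 in cKO IR, and led 2 libraries, WT sham 1 and WT sham 2. Ighv9-3 had 7, 9 and 2 reads in WT sham, 3, 0 and 3 in WT IR, none in cKO sham and 4, 1 and 3 in cKO IR. Igkv3-2 had 6, 5 and 1 reads in WT sham, 1 in each WT IR library, none in cKO sham and 6 in cKO IR 2 alone. None of the 3 had a read in cKO sham. Igkv1-110 (16 reads in all), Igkv10-96 (15), Igkv6-17 (13), Ighv3-6, Igkv17-121 and Igkv6-32 (10 each) complete the 10 with the most reads, the last tied with Igkv1-117. Igkv6-32 had 5 of its 10 reads in cKO sham, and Igkv6-17 had 6 of its 13 in WT IR 3. Single libraries were led by Igkv10-96 (WT sham 3, 5 reads), Igkv6-17 (WT IR 3), Gm43218 and Igkv17-127 (WT IR 1, 5 reads each), Ighv8-12 and Ighv8-2 (cKO sham 1, 2 each) and Iglv2 (cKO sham 3, 4 reads).

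V reads took the smallest share of immunoglobulin reads in cKO sham. V genes held 13.1% of immunoglobulin reads in WT sham (95% interval 11.6% to 14.6%), 15.4% in WT IR (12.8% to 18.4%), 15.7% in cKO IR (12.8% to 18.9%) and 8.20% in cKO sham (5.64% to 11.4%). With Ighm left out of the C reads this order turned: per 100 such reads there were 16.8, 17.6 and 19.5 V reads in WT sham, 20.6, 26.8 and 21.5 in WT IR, 33.3, 100 and 36.6 in cKO sham, and 29.0, 18.7 and 18.8 in cKO IR, the cKO sham values resting on 12 to 41 C reads. Heavy chain V genes had 15 reads in cKO sham beside 319 heavy chain C reads, against 112 beside 1326 in WT sham, 36 beside 417 in WT IR and 56 beside 367 in cKO IR. J segments, which are short and were no part of the set, had 7, 10 and 4 reads in WT sham, 0, 1 and 0 in WT IR, 9, 5 and 13 in cKO sham and 1, 1 and 4 in cKO IR. Like Ighm, they were high in both sham groups. Of the 27 J reads in cKO sham, 23 lay in heavy chain J segments, and D segments had none in any library.

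The other genes of the antibody pathway were read as lists. Of 12 plasma cell genes, Jchain, which links IgA and IgM into polymers, had a Pearson's r of 0.90 with Igkc, 0.93 with Igha and 0.43 with Ighm. It had 1.91, 2.01 and 2.10 FPKM in WT sham, 0.748, 0.269 and 0.428 in WT IR, 0.236, 0.109 and 0.327 in cKO sham, and 0.249, 0.488 and 0.592 in cKO IR. At the lower filter limma called it lower after IR in WT (−1.03, SE 0.13, adjusted p = 0.000367) and in cKO sham against WT sham (−1.30, SE 0.13, adjusted p = 0.00128), but not for IR in cKO (0.23, SE 0.13, adjusted p = 0.203). Its interaction passed (1.27, SE 0.19, adjusted p = 0.0163). At the main filter 5 of the 12 were tested, and IR raised 3 in WT and 4 in cKO, beside 22.6% and 27.8% of all genes. The list median was 0.41 in WT and 0.79 in cKO, beside 0.01 and 0.02 over all genes. Those called in cKO were the secretory factor Xbp1 (1.26, adjusted p = 0.000199), the proteoglycan Sdc1 (1.61, adjusted p = 0.000680), Fkbp11 (0.79, adjusted p = 0.00221) and the elongation factor Ell2 (0.62, adjusted p = 2.70e-05). None of these 4 genes is restricted to plasma cells. At the lower filter 10 of the 12 were tested, with 4 higher and 2 lower for IR in cKO, beside 18.7% and 17.3% of all genes. Those lower were Mzb1, a chaperone of antibody secretion (−0.75, adjusted p = 0.00781), and Prdm1, a transcription factor of plasma cells (−0.40, adjusted p = 0.0134). Txndc5, a protein disulfide isomerase gene, did not pass in any comparison, and Tnfrsf17, the receptor BCMA of plasma cells, had no read in 7 of 12 libraries. Between the sham groups Jchain alone of the 10 was called, beside 0.195% of all genes called lower. Higher in cKO sham, but not called, were Mzb1 (0.50), Fkbp11 (0.20), Txndc5 (0.15), Sdc1 (0.14), Prdm1 (0.14) and Derl3 (0.10). Lower and not called were Xbp1 (−0.53), Irf4 (−0.10) and Ell2 (−0.07).

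B cell genes were near the limit of detection. Of 13 on the list, only Blnk, a signaling adaptor, reached 1 FPKM on average, and it passed no comparison. The summed level of the 13 was 4.60 to 5.71 FPKM in WT sham, 3.08 to 4.02 in WT IR, 3.80 to 4.42 in cKO sham and 2.82 to 3.91 in cKO IR. Cd79a and Cd79b, the signaling chains of the B cell receptor, had 0.407 to 0.621 and 0.569 to 1.32 FPKM in WT sham and 0.141 to 0.331 and 0.240 to 0.479 FPKM in cKO sham. For IR, limma at the lower filter called 1 of the 7 tested genes lower in each genotype, beside 14.6% of all genes in WT and 17.3% in cKO. These were Cd79a in WT (−0.44, adjusted p = 0.00905) and Cr2, a complement receptor, in cKO (−0.39, adjusted p = 0.00432). None was called between the genotypes. The B cell surface marker Ms4a1 was at or below 0.112 FPKM everywhere.

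The genes that cut and join the loci had few reads or none. Rag1 and Rag2, the recombinase, had no read in any library, and Dntt, which adds bases at V(D)J joins, had reads in cKO sham 3 and cKO IR 3 alone. Polh, a repair polymerase that many cells express, was the 1 tested gene of the 6. In limma it rose with IR in WT (0.38, adjusted p = 0.0146), beside 22.6% of all genes called higher. Of the 4 surrogate light chain genes none reached 1 FPKM. Vpreb1 among them ranged from 0.185 to 0.346 FPKM in WT sham, from 0.459 to 0.937 in cKO sham and from 0 to 0.209 in cKO IR. At the lower filter 2 of the 4 were tested, and limma called Vpreb1 lower after IR in cKO (−0.57, adjusted p = 0.00276), beside 17.3% of all genes.

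Among genes that bind or carry antibody, 10 of 11 were tested. Pigr, the epithelial receptor that moves IgA and IgM into secretions, had 110, 216 and 141 FPKM in WT sham, 84.1, 156 and 31.1 in WT IR, 85.0, 69.7 and 43.1 in cKO sham, and 49.0, 61.9 and 39.5 in cKO IR. The cKO sham libraries lay below the WT sham libraries, but no comparison passed (cKO against WT in sham −1.22, SE 0.49, adjusted p = 0.355). IR lowered Fcamr, a receptor for IgA and IgM, in both genotypes (−1.98, adjusted p = 0.000566 in WT and −1.87, adjusted p = 0.000461 in cKO) and Fcgrt, the neonatal IgG receptor, in WT (−0.51, adjusted p = 0.0132). B2m, its partner chain and that of MHC class I, was higher in cKO sham than in WT sham (1.59, adjusted p = 0.00195), as was Trim21, a cytosolic antibody receptor that interferon induces (1.30, adjusted p = 0.00522). In all, 1 of the 10 was called higher and 3 lower for IR in WT, 0 and 4 for IR in cKO, 2 and 0 for genotype in sham, and 0 and 0 for genotype after IR. Over all genes these shares were 22.6% and 19.5%, 27.8% and 23.1%, 0.847% and 0.256%, and 0.0% and 0.0%. List medians were −0.19, −0.41, 0.00 and −0.15, beside 0.01, 0.02, 0.00 and 0.03 over all genes.

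Of 17 factors for survival, switching and homing of B and plasma cells, 5 were tested. For IR 1 of the 5 was called lower in each genotype, beside 19.5% of all genes in WT and 23.1% in cKO. This was Cxcl12, a chemokine that retains plasma cells (limma −1.57, adjusted p = 0.00109 in WT and −2.09, adjusted p = 0.000118 in cKO). None was called between the genotypes. Ccl28, a chemokine that attracts IgA plasma cells, varied widely, from 0.436 to 5.08 FPKM within cKO sham.

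Genes of other cell types and of the interferon response were read in the same groups, and only some of them differed between these. Interferon gamma response genes, 8 on the list, summed to 35.2 to 67.4 FPKM in WT sham, 34.6 to 59.5 in WT IR, 416 to 609 in cKO sham and 14.1 to 27.6 in cKO IR. Of the 6 tested, 5 were called higher in cKO sham than in WT sham, beside 0.847% of all genes. The GTPase gene Tgtp1 (5.01, adjusted p = 0.000208 in limma) was 1 of the 5. All 6 were called lower for IR in cKO, beside 23.1% of all genes. T cell receptor C and V genes had 206 reads in WT sham and 124 in cKO sham, against 110 and 54 after IR. The 11 T cell genes summed to 6.77 to 8.65 FPKM in WT sham, 3.10 to 4.77 in WT IR, 2.40 to 5.25 in cKO sham and 1.27 to 2.92 in cKO IR. At the lower filter 10 of these were tested. Limma called 3 lower for IR in WT, beside 14.6% of all genes, 2 lower for IR in cKO, beside 17.3%, and 0 between the genotypes. The 5 red blood cell genes summed to 281 to 906 FPKM in WT sham, 47.6 to 229 in WT IR, 194 to 270 in cKO sham and 63.9 to 222 in cKO IR. The 6 genes of lymph node stroma and lymphatic vessels summed to 7.82 to 9.56 FPKM in WT sham, 8.27 to 10.6 in WT IR, 9.49 to 12.7 in cKO sham and 7.67 to 12.0 in cKO IR. NK cell genes summed to at most 4.06 FPKM in a library. Macrophage genes summed to 35.6 to 98.7 FPKM over all libraries. Neutrophil genes summed to 1.81 to 3.16 FPKM in the sham groups and 10.9 to 52.0 FPKM after IR. For IR, limma called lower 3 of 6 kidney epithelium genes in WT and 4 in cKO, and 5 of 5 red blood cell genes in WT and 0 in cKO. It called higher 3 of 4 tested neutrophil genes in WT and 4 in cKO. Over all genes, 22.6% were called higher and 19.5% lower for IR in WT, and 27.8% and 23.1% in cKO. Of 7 macrophage genes 1 rose and 1 fell in WT, and 2 rose and 1 fell in cKO, while of 2 tested lymph node and lymphatic genes Pdpn rose in both genotypes and Ccl21a fell in cKO. None of the genes of these 5 lists was called between the genotypes. The part of each of these in the immunoglobulin values was not tested.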

How the data were processed

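The authors deposited 1 table of FPKM per gene and library. Per the submitters' processing notes HISAT2 2.2.1 and the builds mm8 and mm9 were used. How reads were counted, with which annotation and whether by strand, is not given in the sources used here, and the extraction text names retinas where the tissue field says kidney. In each library the product of FPKM and gene length came in whole steps for 100% of values (largest distance from a whole number 5.63e-08, tolerance 0.0001), and the steps were taken as reads. That product with length in kilobases is RPM of the authors' library size, which was 0.933 to 1.13 times the plain total.

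Limma 3.58.1 (R 4.3.3) was fitted on log2(FPKM + 1) with 1 mean per group, all 12 libraries, a filter at a mean of 1 FPKM and a variance trend. Tests were two-sided, and p-values were adjusted by Benjamini-Hochberg over all tested genes, with a threshold of 0.05. Summed levels and shares carry no test. All C genes, the V genes with the most reads, the leading V gene of each library and the leading or called genes of 14 lists are named. Members and lists were chosen with earlier results of these data known. Alternatives changed the pseudocount, filter, scaling, model, block and libraries, and a voom fit on genes with 10 or more reads and sums without Ighm were added after seeing the data.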

Additional observations from a re-analysis of the deposited data

Results flagged for a closer look

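The effect of IR differed between the genotypes for 2 genes, by limma's interaction term. For Igkc the difference was 3.29 on the log2(FPKM + 1) scale (adjusted p = 0.0191): its 3 WT IR libraries lay below all WT sham libraries, and its 3 cKO IR libraries above all cKO sham libraries. For Igha it was 3.01 (adjusted p = 0.00289), with the same arrangement of libraries. In both genes the IR groups of the genotypes overlapped and the sham groups did not. How many of all genes had such an arrangement was not counted, and 0.295% of all tested genes were called higher in the interaction. The Igkc call ended without WT sham 2, cKO sham 1 or cKO sham 2 (adjusted p = 0.0604, 0.0515 and 0.0563 in limma).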

How the results depend on the processing

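Of 147 values of Igkc, Igha and Ighm under other pseudocounts, filters, scalings and models, 144 kept their direction and side of the threshold. The 3 that turned were Igha between the genotypes after IR, which passed nowhere: −0.0227 with plain totals, −0.0352 with voom and −0.0346 with voom on genes with 10 or more reads. Without single libraries 171 of 180 held. The others were the 3 lost Igkc interaction calls given above (adjusted p 0.0120 to 0.0604 over all 12), so that 1 to 2 members were called there, and 6 turned signs in uncalled comparisons: Igkc after IR −0.39 to 0.18, Igha after IR −0.22 to 0.25, and Ighm in sham −0.19 to 0.0451. With all libraries the Igkc interaction had adjusted p 0.0209 to 0.0463.

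Counts of called members moved with the number tested. IR in WT gave 3 of 3, but 9 of 26 at 0.1 FPKM and 11 of 115 unfiltered. With voom on genes with 10 or more reads it gave 7 of 20. Over all genes the calls for IR in WT were 2910 higher and 2514 lower of 12868 in the main fit. They were 3084 and 2996 of 20512 at 0.1 FPKM, 2820 and 2749 of 31723 unfiltered, and 4288 and 2295 of 23007 with that voom. IR in cKO gave 3 of 3 and, with that voom, 5 of 20, beside 4299 higher and 3484 lower over all genes. Genotype in sham gave 2 of 3 and, unfiltered, 4 of 115, beside 102 higher and 47 lower over all genes. The replicate block left the counts of called members at 3, 3, 2, 0 and 2 (last the interaction). Same-numbered libraries did not pair: 4 of 18 pairs had r over 0.1 (−0.186 to 0.401), and 6 of 12 libraries lay closer to their own number. With plain totals the median over all genes shifted by 0.13 for IR in WT, where 69.3% of calls were then higher in place of 53.7%, and in the interaction 20.7% in place of 33.6%; the 3 genes kept their calls.

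The summed log2 difference for IR in cKO was 0.55, 1.48 in V genes alone and 2.38 without Ighm, and for genotype in sham −2.53, −3.19 and −4.28. Per gene length, IgM was 17.7% of heavy chain C in cKO IR, IgA 55.9% in WT sham and 56.8% in cKO IR, and V genes 33.8%, 38.2%, 26.9% and 39.4% of the sum in WT after sham and IR and in cKO after sham and IR. Most V genes hold too few reads for a fold change.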
